A study of Mus musculus with 8 samples.

Results

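The 34 genes described here encode the enzymes and carriers of fatty acid oxidation. They comprise 4 genes of fatty acid activation, 6 of the carnitine shuttle, 2 of malonyl-CoA control, 15 of the mitochondrial β-oxidation steps and their electron transfer, 3 thioesterases and 4 peroxisomal genes. They were chosen by symbol from a list of the pathway and not by their values, although earlier results of these data were known. All 34 were found among the 51826 gene identifiers of the deposited count table, each on 1 identifier, and all 34 were among the 16623 genes with enough counts to test.

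The study sequenced RNA from mouse heart cells labelled cardiomyocytes, comparing animals of genotype LncSync-/- (KO), which lack the long noncoding RNA LncSync, with wild-type animals (WT). Both genotypes were of strain C57BL/6 and were sampled as adults and as embryos at e13.5, in mid-gestation. That gave KO adult, WT adult, KO e13.5 and WT e13.5 groups of 2 libraries each. Each library started from 200 ng of RNA, amplified by Smart-seq2, a full-length cDNA method. The age of the adults, how the cells were isolated and how many animals stand behind a library are not stated in the labels. The p-values therefore measure the spread between libraries, which may be technical. The level of LncSync itself was not analysed here.

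Fatty acid oxidation supplies most of the ATP of the adult heart, while the fetal heart relies more on glucose and lactate. A fatty acid is first joined to coenzyme A, then carried into the mitochondrion as an acylcarnitine. There it is shortened step by step by dehydrogenation, hydration, another dehydrogenation and thiolysis, each round passing electrons to the respiratory chain. Entry is set by carnitine palmitoyltransferase 1, which malonyl-CoA inhibits. Very long and branched chains are shortened first in peroxisomes.

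Between e13.5 and adulthood the genes rose as a group in both genotypes, whereas 0 of 34 passed the test between KO and WT at either age. In KO adults 22 of the 34 were higher than in KO embryos and 1 was lower, where 20.5% and 20.9% of all genes tested were higher and lower (edgeR quasi-likelihood test, Benjamini-Hochberg adjusted p below 0.05). In WT adults 19 were higher and 1 lower, where 17.8% and 21.1% of all genes were. Before adjustment 26 genes in KO and 22 in WT had a p below 0.05, where 51.8% and 49.4% of all genes had one. The same 18 genes were higher in both genotypes, and Acsl3 was the lower one in both. The median log2 fold change of the 34 genes was 2.17 in KO and 1.64 in WT, beside -0.15 and -0.26 over all genes. Their summed level was 17341 ± 819 CPM (counts scaled to an equal library size) in KO adults and 15757 ± 556 CPM in WT adults, against 4144 ± 2199 CPM in KO and 4192 ± 1636 CPM in WT cells at e13.5 (SD, n = 2 each).

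Library totals ran from 16495084 to 20395600 counts. Mitochondrially encoded genes took 22.6% to 28.8% of the counts in adults and 3.21% to 4.36% at e13.5. Cardiomyocyte markers were present in all 8 libraries. The 13 listed summed to between 73491 and 90214 CPM in adults and between 16099 and 40760 CPM at e13.5. The sum was lower in replicate 2 of each genotype at e13.5, although Ttn, Ryr2 and Nkx2-5 were higher there in both genotypes. They did not move together with age, as 4 were called higher and 3 lower in KO adults, and 3 and 3 in WT adults. Their log2 fold changes ran from -14.8 to 7.09 in KO and from -13.6 to 6.58 in WT. The 7 fibroblast markers summed to 2952 CPM in KO and 3317 CPM in WT in replicate 2 at e13.5, and to 294 CPM and 694 CPM in replicate 1. In adults they summed to between 385 and 1008 CPM (1 called higher and 1 lower in KO, 0 and 2 in WT). The 8 red cell markers summed to between 16.8 and 180 CPM in adults and between 19503 and 154035 CPM at e13.5. The 6 macrophage and leukocyte markers summed to between 142 and 376 CPM in adults and between 52.9 and 92.1 CPM at e13.5, and 3 of them were called higher in adults of each genotype. The 7 endothelial markers summed to between 792 and 2002 CPM in adults and between 687 and 916 CPM at e13.5 (2 called higher in KO adults and 0 in WT adults). Of the 5 smooth muscle and pericyte markers 2 were called higher and 1 lower in each genotype. Rgs5 stood at 333 to 497 CPM in adults and 19.7 to 71.0 CPM at e13.5. The lower marker had log2 fold changes of -9.35 in KO and -9.91 in WT, while the largest rise was 3.32 in KO and 3.27 in WT. In bulk RNA, fewer cells of a type and less RNA per cell cannot be told apart, and the part of these values in the age differences was not tested. Xist, the RNA of the inactive X chromosome, was at or below 0.464 CPM in adults and between 12.8 and 81.8 CPM at e13.5. Each of the 8 libraries also held RNA of the 4 Y-linked genes listed, with Ddx3y at 30.0 to 79.0 CPM in adults and 5.81 to 26.0 CPM at e13.5. Xist thus ran with age over all 8 libraries, while Y-linked RNA was present at both ages. Sex makeup and age therefore cannot be told apart in the age differences, and the part of sex makeup was not tested.

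**Figure D1:**
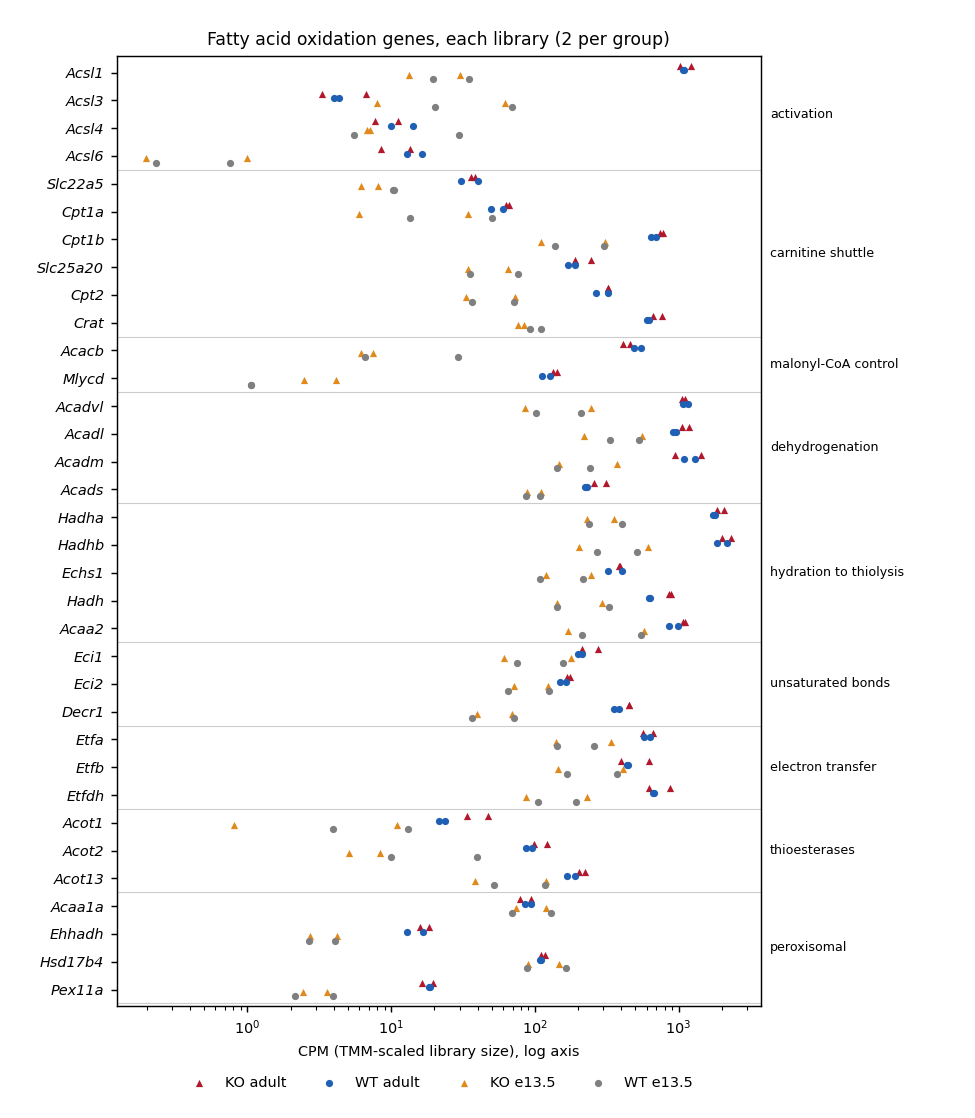
Level of each of the 34 genes in each of the 8 libraries, in CPM on a log axis, with genes grouped by step (KO triangles, WT circles, 2 libraries per group). The adult points lie to the right of the e13.5 points for most genes, while Acsl3 lies to the left, and KO and WT points of an age lie close together.

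The promoters of 5 of these genes are shown for orientation, as the 250 bases before the annotated start in RefSeq (GRCm38.p6), read 5′ to 3′ on the gene's strand. Hadhb is given since Hadha, which encodes the partner subunit, starts 272 bases away on the opposite strand, so that both share this window. Acadm and Acadvl are given for the 6-base nuclear receptor half-site AGGTCA, and Acsl1 and Acsl3 since they moved in opposite directions with age. Capitals mark AGGTCA in Acadm and Acadvl and the GC box GGGCGG in the others, on either strand.
Hadhb (chr5:30155003-30155252, plus strand): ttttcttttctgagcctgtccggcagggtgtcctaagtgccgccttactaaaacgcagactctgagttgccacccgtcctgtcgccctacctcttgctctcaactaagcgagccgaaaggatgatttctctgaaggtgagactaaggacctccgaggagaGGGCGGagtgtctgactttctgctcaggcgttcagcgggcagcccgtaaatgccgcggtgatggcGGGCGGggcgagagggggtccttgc
Acadm (chr3:153944644-153944893, minus strand): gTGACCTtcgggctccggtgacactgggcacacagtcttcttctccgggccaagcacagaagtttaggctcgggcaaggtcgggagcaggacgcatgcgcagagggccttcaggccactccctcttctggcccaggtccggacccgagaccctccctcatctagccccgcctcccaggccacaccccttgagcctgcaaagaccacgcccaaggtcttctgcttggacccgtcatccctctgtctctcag
Acadvl (chr11:70015429-70015678, minus strand): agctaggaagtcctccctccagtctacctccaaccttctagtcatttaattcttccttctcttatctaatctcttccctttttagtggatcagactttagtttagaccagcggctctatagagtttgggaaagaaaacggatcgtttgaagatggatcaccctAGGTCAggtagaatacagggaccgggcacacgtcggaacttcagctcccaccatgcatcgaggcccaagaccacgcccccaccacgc
Acsl1 (chr8:46470787-46471036, plus strand): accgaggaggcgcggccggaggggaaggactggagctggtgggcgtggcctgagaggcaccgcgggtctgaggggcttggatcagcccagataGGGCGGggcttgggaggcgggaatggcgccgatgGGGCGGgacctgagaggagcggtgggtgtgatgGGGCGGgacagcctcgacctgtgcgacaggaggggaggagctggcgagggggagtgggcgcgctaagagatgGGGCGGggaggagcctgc
Acsl3 (chr1:78657575-78657824, plus strand): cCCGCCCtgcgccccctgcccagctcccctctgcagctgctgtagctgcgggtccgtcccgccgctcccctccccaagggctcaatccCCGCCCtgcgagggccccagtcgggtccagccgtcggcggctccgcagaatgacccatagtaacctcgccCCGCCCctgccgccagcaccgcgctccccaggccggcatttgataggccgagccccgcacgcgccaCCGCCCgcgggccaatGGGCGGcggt
In these windows AGGTCA stood 1 time in Acadm and 1 time in Acadvl, and GGGCGG stood 2 times in Hadhb, 4 times in Acsl1 and 5 times in Acsl3. Over the 31 windows of the 28 genes with an entry, AGGTCA was found in 16.1% (genes Acadm, Acadvl, Acsl6, Cpt1a and Echs1), beside 14.0% of all 32851 windows and 12.8% of the 21263 of protein-coding genes. Its longer form AAGGTCA was in 6.45%, beside 4.08% and 3.59%. GGGCGG was in 67.7%, beside 32.7% and 42.6%. Both strands were searched, AGGTCA lies within AAGGTCA, and a match describes the letters and not binding.

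Activation of fatty acids was the step in which the genes differed most from one another with age. These genes encode long-chain acyl-CoA synthetases, which join a fatty acid to coenzyme A. Acsl1, the main isozyme of heart and fat, had 1029 and 1219 CPM in KO adults and 1088 and 1071 CPM in WT adults, against 13.3 and 30.3 CPM in KO and 19.5 and 34.8 CPM in WT cells at e13.5. Every adult library exceeded every embryonic one, with log2 fold changes of 5.69 ± 0.64 in KO (adjusted p = 0.000297) and 5.31 ± 0.62 in WT (adjusted p = 0.00041) by edgeR. For log2 fold changes, ± gives a standard error derived from the fold change and the F of its test. Acsl3, an isozyme of the endoplasmic reticulum and lipid droplets, had 3.29 and 6.69 CPM in KO adults and 4.37 and 3.99 CPM in WT adults, against 8.0 and 62.2 CPM in KO and 20.3 and 69.8 CPM in WT cells at e13.5. It ran the other way, with log2 fold changes of -2.81 ± 0.93 in KO (adjusted p = 0.0351) and -3.43 ± 0.95 in WT (adjusted p = 0.019), although replicate 1 and replicate 2 at e13.5 differed widely in both genotypes. Without KO e13.5 replicate 2 the Acsl3 difference in KO was -0.68 (adjusted p = 0.475), and its call was also lost without either KO adult library (adjusted p = 0.191 and 0.107). In WT its call was lost without WT e13.5 replicate 2 (adjusted p = 0.0562), WT adult replicate 1 (0.0922) or WT adult replicate 2 (0.1).

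Acsl6, an isozyme known mainly from brain and testis, had 8.50 and 13.6 CPM in KO adults and 13 and 16.4 CPM in WT adults, against 1.0 and 0.198 CPM in KO and 0.23 and 0.758 CPM in WT cells at e13.5. The log2 fold changes were 4.25 ± 0.84 in KO (adjusted p = 0.00386) and 4.85 ± 0.85 in WT (adjusted p = 0.00237), from the lowest level of the 34 genes per kb of exon at e13.5. Acsl4, which prefers arachidonic acid and is the only X-linked gene of the set, had 7.71 and 11.2 CPM in KO adults and 14.1 and 9.99 CPM in WT adults, against 7.19 and 6.77 CPM in KO and 5.48 and 29.5 CPM in WT cells at e13.5. WT e13.5 replicate 2 stood above the other embryonic libraries for Acsl4, and its age differences of 0.44 ± 0.69 in KO (adjusted p = 0.625) and -0.54 ± 0.69 in WT (adjusted p = 0.559) did not pass. Per kb of exon, Acsl1 made up 97.0% and 95.9% of the summed level of the 4 synthetases in KO adults and 95.5% and 95.9% in WT adults, against 27.9% and 15.7% in KO and 24.6% and 13.3% in WT at e13.5. Acsl3 made up 0.747% and 1.27% in KO adults and 0.922% and 0.860% in WT adults, against 40.5% and 77.4% in KO and 61.6% and 64.4% in WT at e13.5. Among these 4 genes the predominant transcript thus differed between the ages, being Acsl1 in the 4 adult libraries and Acsl3 in the embryonic ones. The exception was KO e13.5 replicate 1 with lengths of the longest transcript (39.6% Acsl1 and 34.4% Acsl3). These shares leave out Acsl5, a synthetase outside the 34 genes. Per kb of exon at e13.5, Acsl5 had 15.1 and 10.5 CPM in KO and 14.6 and 10.1 CPM in WT. Acsl3 had 1.84 and 14.3 CPM in KO and 4.66 and 16 CPM in WT. Acsl5 thus exceeded Acsl3 in replicate 1 of both genotypes. In adults Acsl5 had 4.86 and 2.43 CPM per kb in KO and 3.24 and 2.07 in WT.

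**Figure D2:**
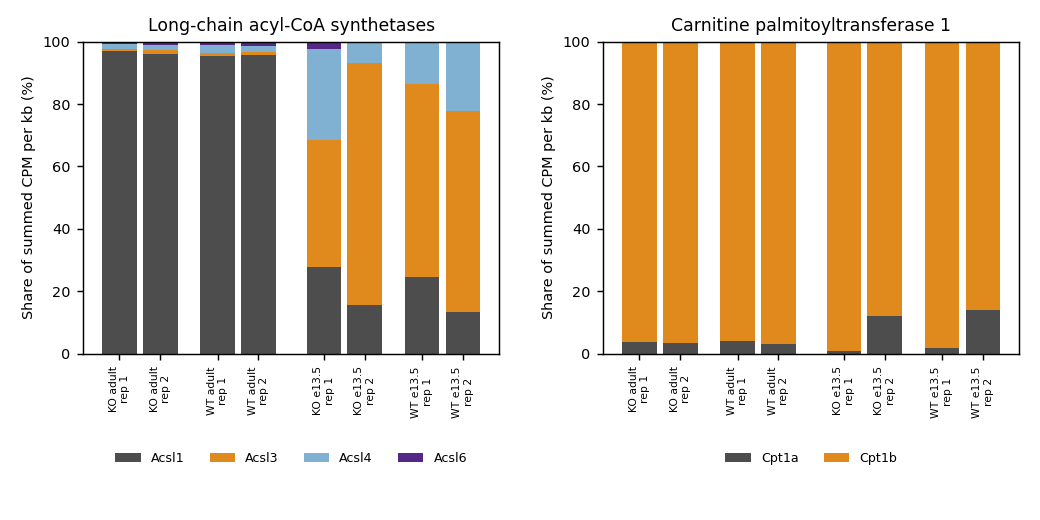
Share of each isozyme in the summed level per kb of exon, for the 4 acyl-CoA synthetases on the left and for Cpt1a and Cpt1b on the right, 1 bar per library. Acsl1 takes 95.5% to 97.0% in adult libraries and 13.3% to 27.9% in e13.5 libraries, and Cpt1b takes 86.0% to 99.1% in all libraries.

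All 6 genes of the carnitine shuttle were higher in adults than at e13.5 by fold change, 5 of them past the test in KO and 4 in WT. Cpt1b, the muscle isozyme of carnitine palmitoyltransferase 1 on the outer membrane, had 746 and 781 CPM in KO adults and 641 and 699.9 CPM in WT adults, against 306 and 110.4 CPM in KO and 305 and 137 CPM in WT cells at e13.5. All adult libraries were above all embryonic ones, and the log2 fold changes were 1.88 ± 0.60 in KO (adjusted p = 0.0307) and 1.60 ± 0.59 in WT (adjusted p = 0.0556), on either side of the threshold. Cpt1a, the liver isozyme, had 65.7 and 62.8 CPM in KO adults and 59.7 and 49.8 CPM in WT adults, against 5.94 and 34.1 CPM in KO and 13.6 and 50.7 CPM in WT cells at e13.5. Its level in replicate 2 at e13.5 came close to the adult levels, in WT overlapping them, and its differences of 1.68 ± 0.79 in KO (adjusted p = 0.113) and 0.77 ± 0.78 in WT (adjusted p = 0.455) did not pass. Cpt1b was the predominant isozyme at both ages, at 96.3% and 96.6% of the summed level per kb in KO adults and 96.0% and 97.0% in WT adults, against 99.1% and 88.0% in KO and 98.1% and 86.0% in WT at e13.5.

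Cpt2, which reforms acyl-CoA inside the mitochondrion, had 324 and 324 CPM in KO adults and 268 and 323 CPM in WT adults, against 73.1 and 33.4 CPM in KO and 71.6 and 36.7 CPM in WT cells at e13.5. Cpt2 rose by 2.61 ± 0.54 (log2) in KO (adjusted p = 0.00477) and 2.45 ± 0.53 in WT (adjusted p = 0.00662). Crat, carnitine acetyltransferase, which buffers acetyl-CoA, averaged 719 ± 70.9 CPM in KO adults and 612 ± 9.96 CPM in WT adults, against 80.6 ± 5.93 in KO and 102 ± 12.8 in WT cells at e13.5 (SD, n = 2 each). Its log2 fold changes of 3.16 ± 0.44 in KO (adjusted p = 0.000703) and 2.58 ± 0.43 in WT (adjusted p = 0.00177) were the largest of the shuttle. Slc25a20, the carnitine-acylcarnitine carrier of the inner membrane, averaged 218 ± 38.2 CPM in KO adults and 180.4 ± 14.7 CPM in WT adults, against 49.7 ± 21.6 in KO and 56 ± 28.7 in WT cells at e13.5. Slc25a20 rose by 2.13 ± 0.52 (log2) in KO (adjusted p = 0.0103) and 1.69 ± 0.51 in WT (adjusted p = 0.0275). Slc22a5, the carnitine importer of the plasma membrane, averaged 37.1 ± 1.37 CPM in KO adults and 35.6 ± 6.67 CPM in WT adults, against 7.13 ± 1.33 in KO and 10.3 ± 0.0862 in WT cells at e13.5. Slc22a5 rose by 2.38 ± 0.43 (log2) in KO (adjusted p = 0.0024) and 1.78 ± 0.42 in WT (adjusted p = 0.00893). Within the shuttle the Cpt1b call in KO was lost without KO e13.5 replicate 2 (adjusted p = 0.117), either KO adult library (0.092 and 0.11) or either WT adult library (0.0554 and 0.0545), and with median-of-ratios scaling (0.0552). That of Slc25a20 in KO was lost without KO e13.5 replicate 2 (0.0502) or KO adult replicate 1 (0.0573). The Slc25a20 call in WT was lost without WT e13.5 replicate 2 (0.104) or WT adult replicates 1 (0.136) or 2 (0.104), and that of Slc22a5 in WT without WT adult replicate 2 (0.1).

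Both genes of malonyl-CoA control were among the 3 largest rises of the 34, although they encode opposing enzymes. Acacb, the mitochondrial acetyl-CoA carboxylase that makes malonyl-CoA, had 411 and 457 CPM in KO adults and 549.9 and 491 CPM in WT adults, against 6.19 and 7.52 CPM in KO and 6.54 and 29.1 CPM in WT cells at e13.5. In log2 terms the changes were 5.98 ± 0.75 in KO (adjusted p = 0.000474) and 4.87 ± 0.71 in WT (adjusted p = 0.001). Mlycd, malonyl-CoA decarboxylase, which removes malonyl-CoA, had 142 and 134 CPM in KO adults and 128 and 113 CPM in WT adults, against 4.13 and 2.49 CPM in KO and 1.06 and 1.07 CPM in WT cells at e13.5. Its log2 fold changes were 5.39 ± 0.49 in KO (adjusted p = 0.000173) and 6.81 ± 0.53 in WT (adjusted p = 0.000187), from a count of 23 and 31 in the WT embryonic libraries. Neither gene's groups overlapped between ages, and neither call was lost in any of the 18 other settings tried. Per kb of exon the levels of Acacb were 45 CPM per kb in KO adults and 54 in WT adults, against 0.711 in KO and 1.85 in WT at e13.5. Those of Mlycd were 46.5 CPM per kb in KO adults and 40.6 in WT adults, against 1.11 in KO and 0.358 in WT at e13.5, so the 2 transcripts stood within the same range in adults.

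**Figure D3:**
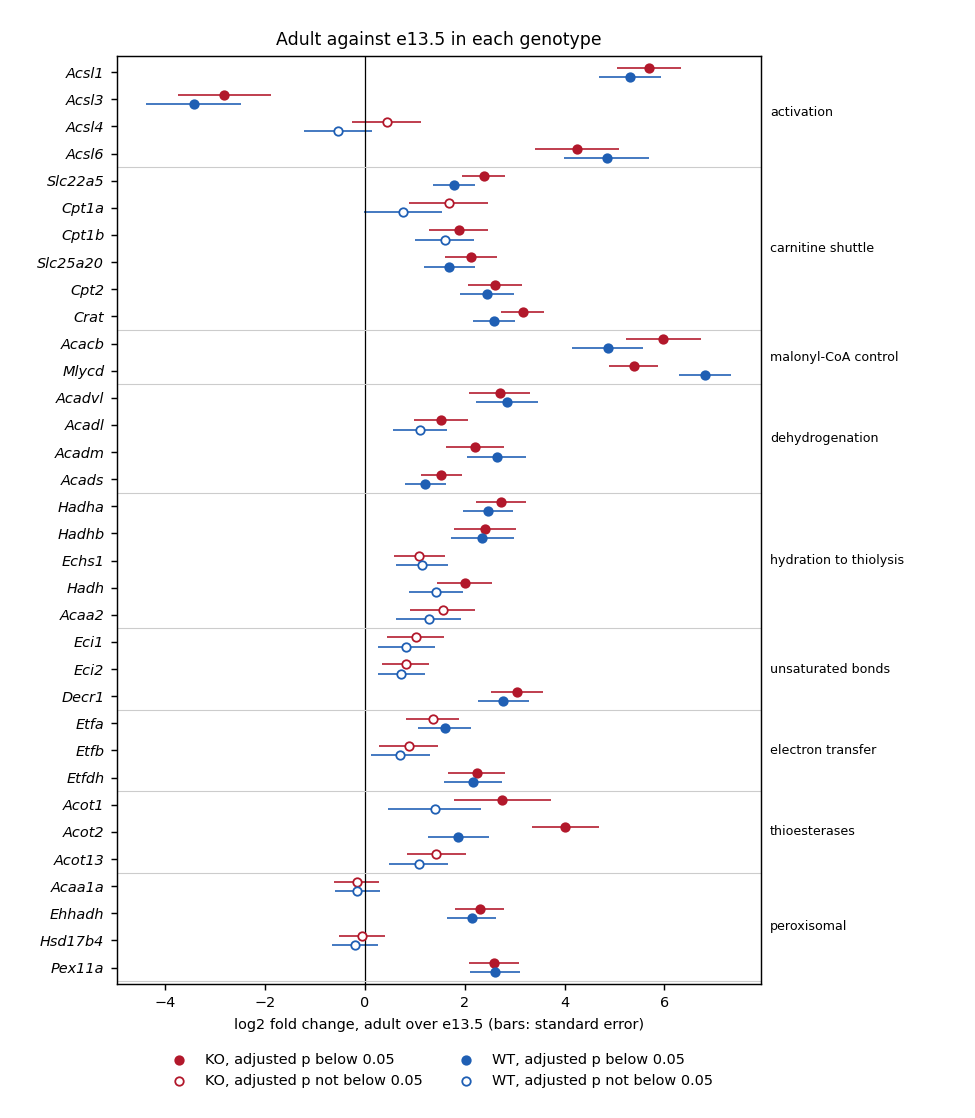
Log2 fold change of each gene, adult over e13.5, in KO (red) and WT (blue), with bars of 1 standard error derived from the edgeR F test. Filled points have an adjusted p below 0.05. Acsl1, Acacb and Mlycd lie farthest right, Acsl3 alone is filled on the left, and Acaa1a and Hsd17b4 lie near 0.

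The 4 acyl-CoA dehydrogenases, which carry out the first dehydrogenation and differ in the chain length they prefer, rose in KO, and 3 of them in WT. Acadl, long-chain acyl-CoA dehydrogenase, had 1050.5 and 1176 CPM in KO adults and 954 and 909 CPM in WT adults, against 556 and 221 CPM in KO and 529 and 336 CPM in WT cells at e13.5. Per kb of exon it was the most abundant dehydrogenase transcript at both ages (555 CPM per kb in KO adults and 465 in WT adults, against 194 in KO and 216 in WT at e13.5). With the length of the longest transcript instead, Acadm exceeded it in adults (584 beside 581 CPM per kb in KO, 586 beside 486 in WT), as did Acadvl in WT adults (515). Its smaller log2 fold changes were 1.52 ± 0.54 in KO (adjusted p = 0.0465) and 1.11 ± 0.53 in WT (adjusted p = 0.125). Acadvl, the very-long-chain enzyme of the inner membrane, had 1064 and 1103 CPM in KO adults and 1075 and 1158 CPM in WT adults, against 248 and 85.5 CPM in KO and 209 and 103 CPM in WT cells at e13.5. Its log2 fold changes were larger, at 2.70 ± 0.62 in KO (adjusted p = 0.00756) and 2.84 ± 0.62 in WT (adjusted p = 0.0066). Acadm, the medium-chain enzyme, averaged 1196 ± 348 CPM in KO adults and 1199.9 ± 141 CPM in WT adults, against 259.5 ± 157 in KO and 193 ± 70.5 in WT cells at e13.5. Acadm rose by 2.20 ± 0.58 (log2) in KO (adjusted p = 0.014) and 2.64 ± 0.59 in WT (adjusted p = 0.00718). Acads, the short-chain enzyme, had 315 and 258 CPM in KO adults and 229.8 and 224 CPM in WT adults, against 111 and 87.7 CPM in KO and 109 and 87 CPM in WT cells at e13.5. Acads rose by 1.53 ± 0.41 (log2) in KO (adjusted p = 0.0149) and 1.21 ± 0.40 in WT (adjusted p = 0.0386).

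Some dehydrogenase calls were lost when 1 library was left out or a setting changed. A fit without a library has fewer residual degrees of freedom, so a lost call there need not come with a smaller change. The call of Acadvl was kept in all 18 other settings in both genotypes, and that of Acadm in WT as well. The Acadm call in KO was lost without KO e13.5 replicate 2 (adjusted p = 0.0545) or KO adult replicate 2 (0.0852). The Acads call in KO was lost without KO e13.5 replicate 2 (0.0673) or KO adult replicate 1 (0.0742), and in WT without any 1 of the 6 libraries other than those of KO e13.5 (0.0577 to 0.2), with log2 fold changes of 1.08 to 1.52 in those fits. The Acads call in WT was also lost with median-of-ratios scaling (0.0606), upper quartile scaling (0.067), no filter (0.0809) or only the 4 libraries compared (0.0523). The Acadl call in KO was lost without KO e13.5 replicate 2 (0.181) or any 1 of the 4 adult libraries (0.0894 to 0.159). Its log2 fold change was 0.997 without KO e13.5 replicate 2 and 1.44 to 1.60 in the others. The Acadl call in KO was also lost with median-of-ratios scaling (0.0947), upper quartile scaling (0.081), a filter of 5 CPM in 2 libraries (0.0515), only the 4 libraries compared (0.0905) or without mitochondrial, haemoglobin and ribosomal RNA genes (0.0668), and was kept in 8 of 18 settings. Acadvl shares 42.9% of its exon bases with Dvl2 on the opposite strand, and Dvl2 had 3.45% as many counts as Acadvl over all libraries. Whether counting used strand is not stated in the labels.

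The later mitochondrial steps rose in part. Hadha and Hadhb encode the subunits of the mitochondrial trifunctional protein, which completes long-chain rounds, and lie head to head on chromosome 5. Hadhb, with the thiolase activity, had 2018 and 2327 CPM in KO adults and 1849 and 2166 CPM in WT adults, against 614 and 202 CPM in KO and 512 and 272 CPM in WT cells at e13.5. The log2 fold changes were 2.41 ± 0.63 in KO (adjusted p = 0.0135) and 2.36 ± 0.62 in WT (adjusted p = 0.0157). Hadha, with the hydratase and dehydrogenase activities, averaged 1948 ± 153 CPM in KO adults and 1779 ± 41 CPM in WT adults, against 294 ± 88.9 in KO and 320.3 ± 115 in WT cells at e13.5. Hadha rose by 2.73 ± 0.51 (log2) in KO (adjusted p = 0.00292) and 2.47 ± 0.50 in WT (adjusted p = 0.00476). The ratio of Hadha to Hadhb CPM was 0.912 and 0.884 in KO adults and 0.946 and 0.834 in WT adults, against 0.580 and 1.14 in KO and 0.784 and 0.877 in WT at e13.5, a narrower range in the adult libraries.

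Hadh, the short-chain 3-hydroxyacyl-CoA dehydrogenase, had 881 and 856 CPM in KO adults and 625 and 637 CPM in WT adults, against 292 and 142 CPM in KO and 328 and 142 CPM in WT cells at e13.5. It passed in KO and not in WT, with log2 fold changes of 2.0 ± 0.55 in KO (adjusted p = 0.0178) and 1.42 ± 0.54 in WT (adjusted p = 0.0628). Acaa2, the mitochondrial 3-ketoacyl-CoA thiolase, had 1112 and 1075 CPM in KO adults and 862 and 984 CPM in WT adults, against 571 and 171 CPM in KO and 547 and 213 CPM in WT cells at e13.5. It had the highest level per kb of exon of the 34 genes in every group (721 CPM per kb in KO adults and 609 in WT adults, against 245 in KO and 251 in WT at e13.5), while with the length of the longest transcript Etfb was first at e13.5. The differences of 1.56 ± 0.65 in KO (adjusted p = 0.0793) and 1.28 ± 0.65 in WT (adjusted p = 0.141) did not pass, and replicates 1 and 2 at e13.5 lay far apart. Echs1, the short-chain enoyl-CoA hydratase, averaged 390.3 ± 5.96 CPM in KO adults and 361 ± 57.2 CPM in WT adults, against 183 ± 89.1 in KO and 163 ± 76.3 in WT cells at e13.5. The Echs1 differences of 1.09 ± 0.51 in KO (adjusted p = 0.11) and 1.15 ± 0.51 in WT (adjusted p = 0.102) did not pass. The Hadhb call in KO was lost without KO adult replicate 2 (adjusted p = 0.064), and in WT without WT e13.5 replicate 2 (0.0678), WT adult replicate 1 (0.0576) or WT adult replicate 2 (0.0768). The Hadh call in KO was lost without KO e13.5 replicate 2 (0.0756), KO adult replicate 1 (0.0672) or KO adult replicate 2 (0.0686).

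Of the 3 enzymes that handle double bonds, 1 rose. Decr1, 2,4-dienoyl-CoA reductase, which serves polyunsaturated chains, had 453 and 453 CPM in KO adults and 358 and 387 CPM in WT adults, against 69.8 and 39.8 CPM in KO and 72 and 36.8 CPM in WT cells at e13.5. In log2 terms the changes were 3.05 ± 0.52 in KO (adjusted p = 0.0018) and 2.78 ± 0.51 in WT (adjusted p = 0.00291), kept in all 18 other settings. Eci1, an enoyl-CoA isomerase, had 273 and 213 CPM in KO adults and 213 and 201 CPM in WT adults, against 179 and 61.5 CPM in KO and 156 and 75.7 CPM in WT cells at e13.5. Eci2, another isomerase found in mitochondria and peroxisomes, averaged 171 ± 5.49 CPM in KO adults and 158 ± 11.2 CPM in WT adults, against 97.3 ± 36.2 in KO and 95.6 ± 42.9 in WT cells at e13.5. Adult libraries were above embryonic ones for both isomerases, but the fold changes of Eci1, 1.02 ± 0.57 in KO (adjusted p = 0.173) and 0.83 ± 0.57 in WT (adjusted p = 0.267), and of Eci2, 0.82 ± 0.47 in KO (adjusted p = 0.181) and 0.73 ± 0.47 in WT (adjusted p = 0.239), did not pass.

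Electron transfer flavoprotein takes electrons from the dehydrogenases, and its oxidoreductase passes them to ubiquinone. Etfb, the β subunit, had 622 and 399 CPM in KO adults and 442 and 441 CPM in WT adults, against 411 and 146 CPM in KO and 372 and 168 CPM in WT cells at e13.5. The differences of 0.88 ± 0.60 in KO (adjusted p = 0.255) and 0.71 ± 0.60 in WT (adjusted p = 0.364) did not pass, and KO adult replicate 2 lay within the embryonic range. Etfa, the α subunit, had 568 and 666 CPM in KO adults and 638 and 574 CPM in WT adults, against 341 and 141 CPM in KO and 257 and 144 CPM in WT cells at e13.5. Etfa passed in WT and not in KO, at 1.36 ± 0.54 in KO (adjusted p = 0.0662) and 1.60 ± 0.54 in WT (adjusted p = 0.0406). Etfdh, the oxidoreductase, averaged 747 ± 178 CPM in KO adults and 669 ± 10.7 CPM in WT adults, against 158 ± 101 in KO and 149.8 ± 63 in WT cells at e13.5. Etfdh rose by 2.24 ± 0.58 (log2) in KO (adjusted p = 0.0133) and 2.16 ± 0.58 in WT (adjusted p = 0.0162). The Etfa call in WT was lost without WT e13.5 replicate 2 (adjusted p = 0.155) or any 1 of the 4 adult libraries (0.0654 to 0.172), and with median-of-ratios (0.0585) or upper quartile scaling (0.0609). The Etfdh call in KO was lost without KO e13.5 replicate 2 (0.0523) or KO adult replicate 2 (0.0765), and in WT without WT e13.5 replicate 2 (0.0684), WT adult replicate 1 (0.0714) or WT adult replicate 2 (0.0729).

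The thioesterases, which free fatty acids from coenzyme A, gave 2 calls in KO and 1 in WT. Acot2, a mitochondrial thioesterase, had 121 and 98.4 CPM in KO adults and 87.1 and 95.1 CPM in WT adults, against 5.06 and 8.43 CPM in KO and 9.95 and 39.7 CPM in WT cells at e13.5. Its log2 fold changes were 4.02 ± 0.68 in KO (adjusted p = 0.00175) and 1.87 ± 0.62 in WT (adjusted p = 0.0368). Acot1, its cytosolic relative, had 47.3 and 33.9 CPM in KO adults and 23.8 and 21.5 CPM in WT adults, against 0.813 and 11.1 CPM in KO and 3.96 and 13.1 CPM in WT cells at e13.5. KO e13.5 replicate 1 stood lowest, and the fold changes were 2.76 ± 0.98 in KO (adjusted p = 0.0461) and 1.40 ± 0.93 in WT (adjusted p = 0.255). Acot13, a small thioesterase of another family, had 224 and 203 CPM in KO adults and 191 and 167 CPM in WT adults, against 119.8 and 38.5 CPM in KO and 117 and 52.2 CPM in WT cells at e13.5. The Acot13 differences of 1.43 ± 0.60 in KO (adjusted p = 0.0782) and 1.08 ± 0.59 in WT (adjusted p = 0.169) did not pass. Acot1 and Acot2 lie 15616 bases apart on chromosome 12 and share 95.1% of their transcript bases over more than 50% of their length, so their separate counts are uncertain. The Acot1 call in KO was lost without KO e13.5 replicate 1 (adjusted p = 0.0815) or any 1 of the 4 adult libraries (0.0527 to 0.15). The Acot2 call in WT was lost without WT e13.5 replicate 1 (0.0843) or any 1 of the 4 adult libraries (0.0589 to 0.129), and with only the 4 libraries compared (0.0605).

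The peroxisomal genes split into a pair that rose and a pair that did not pass the test. Hsd17b4, the D-bifunctional protein, had 118 and 111 CPM in KO adults and 109 and 111 CPM in WT adults, against 148 and 90.2 CPM in KO and 165 and 87.8 CPM in WT cells at e13.5. Acaa1a, the peroxisomal thiolase, had 93.9 and 78.7 CPM in KO adults and 85.6 and 93.6 CPM in WT adults, against 119 and 74.2 CPM in KO and 129.7 and 69.5 CPM in WT cells at e13.5. Adult libraries lay between the embryonic replicates for both genes or beside them. The fold changes were -0.06 ± 0.46 in KO (adjusted p = 0.929) and -0.20 ± 0.46 in WT (adjusted p = 0.75) for Hsd17b4 and -0.16 ± 0.45 in KO (adjusted p = 0.791) and -0.15 ± 0.45 in WT (adjusted p = 0.812) for Acaa1a. Ehhadh, the L-bifunctional enzyme, averaged 17 ± 1.71 CPM in KO adults and 14.9 ± 2.65 CPM in WT adults, against 3.46 ± 1.03 in KO and 3.37 ± 0.969 in WT cells at e13.5. Ehhadh rose by 2.30 ± 0.50 (log2) in KO (adjusted p = 0.00582) and 2.14 ± 0.49 in WT (adjusted p = 0.00832). Pex11a, which acts in peroxisome division, averaged 18 ± 2.23 CPM in KO adults and 18.5 ± 0.182 CPM in WT adults, against 3.01 ± 0.785 in KO and 3.03 ± 1.26 in WT cells at e13.5. Pex11a rose by 2.59 ± 0.51 (log2) in KO (adjusted p = 0.00374) and 2.61 ± 0.51 in WT (adjusted p = 0.00381). Per kb of exon, Ehhadh and Pex11a stayed below Hsd17b4 in every group, with 5.71 and 5.67 beside 33.6 CPM per kb in KO adults. The Ehhadh call in WT was lost without WT adult replicate 2 (adjusted p = 0.0747). Acaa1a overlaps Myd88 on the opposite strand over 6.57% of its exon bases, and Myd88 had 16.3% as many counts.

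The number of calls varied with the library left out. The number of genes higher in adults ranged from 15 to 25 in KO and from 11 to 21 in WT, the lowest WT count being that without WT adult replicate 2. Of the 23 calls in KO 13 were kept in every one of 18 other settings, and of the 20 in WT 11 were. Genes with a log2 fold change above 0 numbered 31 of 34 in KO and 30 of 34 in WT, where 47.2% and 44.6% of all genes were above 0. The adult and embryonic libraries did not overlap for 31 genes in KO (30 higher in adults, 1 lower) and 30 in WT (29 higher, 1 lower), where 72.7% and 75.9% of all genes did not.

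The comparison of KO with WT asks whether loss of LncSync changes these genes. In adults 0 of 34 genes passed the adjusted threshold and 0 had an unadjusted p below 0.05, where 0.0421% of all genes were called higher, 0.00602% lower and 2.27% had an unadjusted p below 0.05. DESeq2 also called 0 of the 34, and the lowest adjusted p under any setting tried was 0.815. The median log2 fold change was 0.17 for the 34 genes and 0.01 over all genes, and 27 of 34 were positive, beside 53.7% of all genes. The KO and WT libraries did not overlap for 17 of the 34 genes, where 27.9% of all genes did not. KO was higher for 16 of them and lower for 1 (Acacb), while of all 16623 genes 2239 were higher and 2405 lower without overlap. The 34 values share the same 4 libraries and their scaling. Most markers of other cell types lay on the same side in adults, though 1 of 5 smooth muscle and pericyte and 1 of 8 red cell markers did not. The fold change of KO over WT was above 0 for 7 of 7 endothelial (median 0.60, log2), 7 of 7 fibroblast (0.41) and 6 of 6 macrophage and leukocyte markers (0.43), with 0 called, beside a median of -0.05 over the 13 cardiomyocyte markers. The endothelial markers summed to 2002 and 1022 CPM in KO adults, against 1081 and 792 CPM in WT adults. Those of fibroblasts summed to 1008 and 584 CPM in KO adults, against 629 and 385 CPM in WT adults, and those of macrophages and leukocytes to 376 and 229 CPM in KO adults, against 241 and 142 CPM in WT adults. Their part in the differences of the 34 genes was not tested. With library sizes set to total counts 8 were higher and 4 lower, where 9.98% and 19.2% of all genes were.

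The 3 genes of smallest p in adults show the size of these differences. Acot1 had 47.3 and 33.9 CPM in KO adults, against 23.8 and 21.5 CPM in WT adults, a log2 fold change of 0.84 ± 0.92 (edgeR unadjusted p = 0.382). Hadh had 881 and 856 CPM in KO adults, against 625 and 637 CPM in WT adults, a fold change of 0.46 ± 0.54 (edgeR unadjusted p = 0.41). Acads had 315 and 258 CPM in KO adults, against 229.8 and 224 CPM in WT adults, a fold change of 0.34 ± 0.40 (edgeR unadjusted p = 0.418). The KO libraries were higher in all 3 genes without overlap, but the differences were smaller than their standard errors, which were derived from the same tests as the p-values. The fit shares 1 estimate of a gene's spread over all 8 libraries. These standard errors and p-values therefore also carry the spread at e13.5, where Hadh had 292 and 142 CPM in KO and 328 and 142 CPM in WT. The next by p were Decr1 at 0.28 ± 0.48 and Crat at 0.23 ± 0.40. Acacb, the only gene with both KO libraries lower, had 411 and 457 CPM in KO adults, against 549.9 and 491 CPM in WT adults, a fold change of -0.26 ± 0.61. The fold changes of all 34 genes ran from -0.41 (Acsl6) to 0.84 (Acot1) on the log2 scale.

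At e13.5 0 of 34 genes passed the adjusted threshold, where 0.0602% of all genes were called higher and 0.012% lower. An unadjusted p below 0.05 was found for 2 of 34, where 2.39% of all genes had one. DESeq2 called 0 of the 34, and the lowest adjusted p under any setting was 0.0884. Mlycd had 4.13 and 2.49 CPM in KO embryos, against 1.06 and 1.07 CPM in WT embryos, a log2 fold change of 1.62 ± 0.44 (edgeR unadjusted p = 0.00438, adjusted p = 1). It was the 1 gene with both KO libraries above both WT libraries, at counts of 66 and 63 in KO, against 23 and 31 in WT. Acot2 had 5.06 and 8.43 CPM in KO embryos, against 9.95 and 39.7 CPM in WT embryos, a fold change of -1.88 ± 0.62 (unadjusted p = 0.0132). Acacb, the next by p, had 6.19 and 7.52 CPM in KO embryos, against 6.54 and 29.1 CPM in WT embryos, a fold change of -1.38 ± 0.62 (unadjusted p = 0.0526). For Acot2 and Acacb WT e13.5 replicate 2 stood well above the other 3 libraries.

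The KO and WT libraries at e13.5 did not overlap for 4 of the 34 genes, where 15.4% of all genes did not. Beside Mlycd these were Acot2, Slc22a5 and Crat, all 3 lower in KO. The median log2 fold change was -0.04, beside -0.07 over all genes, with 14 genes positive, where 43.2% of all genes were. The standard errors, from a fit with no replicate term, ran from 0.40 for Acads to 0.92 for Acot1 at both ages. The fit shares 1 estimate of a gene's spread over all 8 libraries, so they do not compare the spread between ages. The highest ratio between replicates was 2.03 in KO adults and 1.42 in WT adults, against 13.6 in KO and 5.37 in WT at e13.5.

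**Figure D4:**
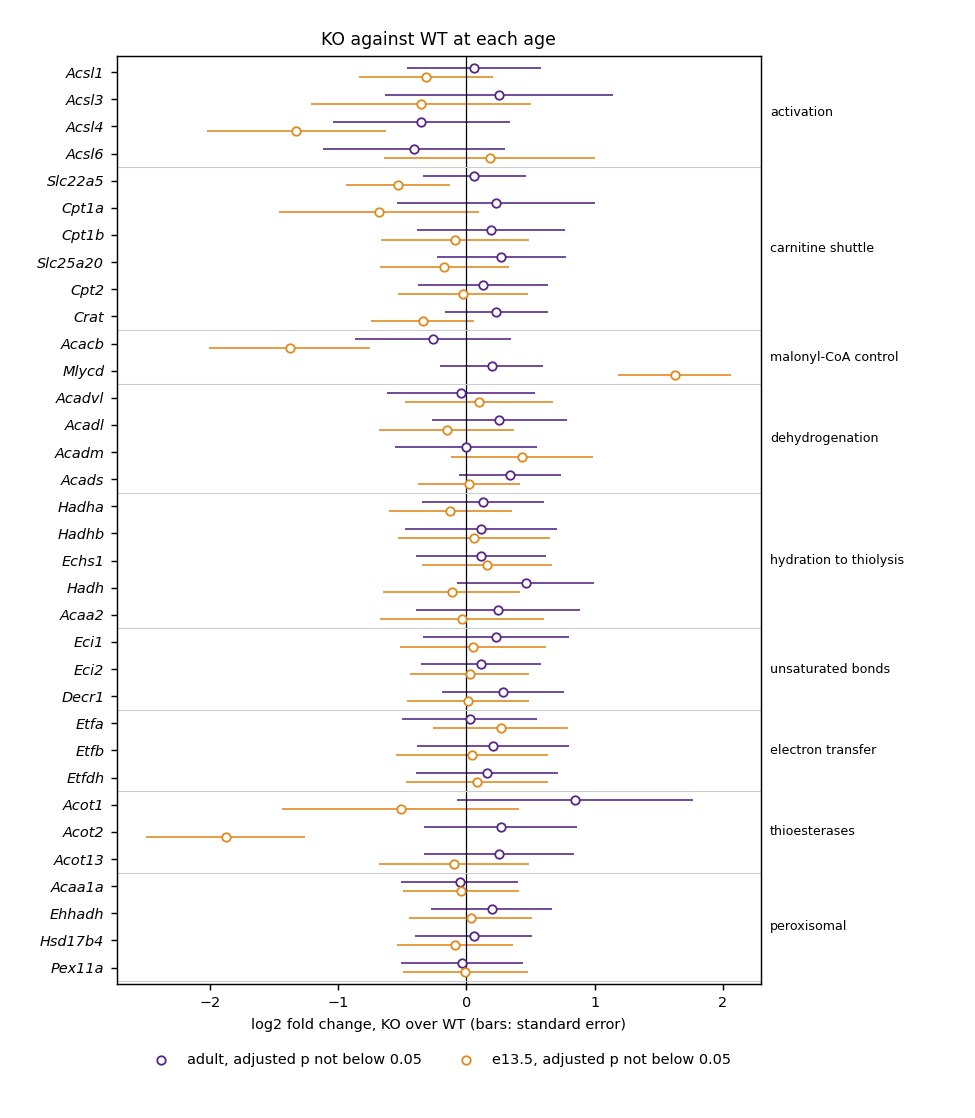
Log2 fold change of each gene, KO over WT, in adults (purple) and at e13.5 (orange), with bars of 1 standard error derived from the edgeR F test. Open points have an adjusted p not below 0.05, which holds for all 34 genes at both ages. Most adult points lie slightly right of 0, and Mlycd, Acot2, Acacb and Acsl4 lie farthest from 0 at e13.5.

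The interaction of genotype and age asks whether the age difference differed between KO and WT. It was called for 0 of 34 genes and, by edgeR, for 0% of all genes. An unadjusted p below 0.05 was found for 2 of 34, where 1.59% of all genes had one, and 26 of 34 values were positive, where 58.1% of all genes were. DESeq2 called 0 of the 34 and 7 of all genes, and the lowest adjusted p among the 34 in any setting was 0.543. Acot2 had an interaction of 2.14 ± 0.86 (log2, unadjusted p = 0.0318), and Mlycd one of -1.43 ± 0.59 (unadjusted p = 0.0374), both at an adjusted p of 1. The 5 genes called in 1 genotype alone (Acadl, Acot1, Cpt1b and Hadh in KO, Etfa in WT) had interactions of 0.41 ± 0.75, 1.36 ± 1.30, 0.28 ± 0.82, 0.58 ± 0.76 and -0.24 ± 0.74, each smaller than its own standard error except that of Acot1, which was about equal to it. The 2 age comparisons use separate libraries, but the interaction shares all 8 with them.

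The 2 libraries of a group differed far more at e13.5 than in adults, and did so along the same lines in both genotypes. At e13.5, 24 of the 34 genes were higher in replicate 1 in KO and in WT, where 35.5% of all genes were, and with 2 CPM added to each level 7 were over 2-fold higher in both, where 2.5% of all genes were. Acsl3, Cpt1a and Acot1 were over 2-fold lower in replicate 1 in both, where 6.85% of all genes were. The median log2 ratio of replicate 1 to replicate 2 was -0.00 in KO adults and -0.02 in WT adults, against 0.73 in KO and 0.79 in WT at e13.5, and on that scale 0 genes differed over 2-fold between adult replicates of either genotype. Without the added 2 CPM Acsl3 in KO adults did so, at a ratio of 2.03. At e13.5 mitochondrial enzymes such as Acaa2, Hadhb and Cpt1b were higher in replicate 1 in both genotypes, as were all peroxisomal genes of the set. The 7 genes lower in replicate 1 in both were Acsl1, Acsl3, Slc22a5, Cpt1a, Acacb, Acot1 and Acot2. Of these, Cpt1a, Acacb and Acot2 also encode mitochondrial enzymes. Other quantities moved with this split. Of the 13 cardiomyocyte markers at e13.5, 8 were higher in replicate 1 in both genotypes, 3 were lower in both (Ttn, Ryr2 and Nkx2-5), and Myh6 and Myh7 differed in direction between KO and WT. Actc1, cardiac actin, had 18963 and 5869 CPM in replicates 1 and 2 of KO and 14920.2 and 7311 CPM in those of WT, whereas Nkx2-5, a cardiac transcription factor, had 4.69 and 96.5 CPM in KO and 29.5 and 135 CPM in WT. Of the 7 fibroblast markers 5 were lower in replicate 1 in both genotypes, such as the collagen Col1a1 with 64.8 and 1399 CPM in KO and 188 and 1191 CPM in WT. Dcn and Tcf21 were lower in replicate 1 in KO but not in WT. All 8 red cell markers were higher in replicate 1 in both genotypes. Over the 34 genes the ratio at e13.5 also ran with transcript length (Spearman's rho -0.50 in KO and -0.48 in WT). These were taken over genes of the same libraries, beside -0.40 and -0.55 over all 16623 genes. In adults rho was -0.41 in KO and -0.08 in WT, beside -0.31 and 0.06 over all genes. The relation was thus also present in KO adults, without such a split. The part of these quantities in the spread of the 34 genes was not tested.

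**Figure D5:**
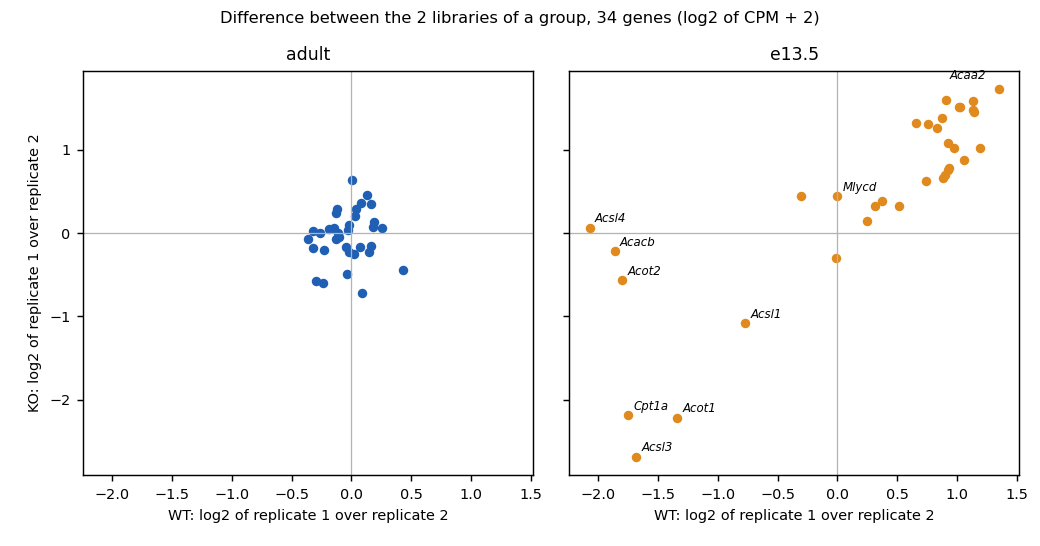
Difference between replicate 1 and replicate 2 (log2 of CPM + 2) of each of the 34 genes, in WT on the horizontal and in KO on the vertical axis, in adults on the left and at e13.5 on the right. Adult points gather around 0. At e13.5 most genes lie in the upper right corner and Acsl3, Cpt1a and Acot1 in the lower left.

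The level of a transcript per kb spanned a wide range within the pathway. In WT adults it ran from 0.959 CPM per kb for Acsl3 to 609 for Acaa2, and in WT embryos from 0.0498 for Acsl6 to 251 for Acaa2. After Acaa2, the order in KO adults was Acadl (555), Etfb (439), Acadvl (403) and Etfa (336), and in WT adults Acadl (465), Acadvl (416), Etfb (379.6) and Etfa (330.2). With the length of the longest transcript Acadm came next to Acaa2 in both adult groups, and Acadl ranked 3 in KO and 5 in WT. Per kb of exon Acsl1 ranked 17 of 34 in KO adults and 14 in WT adults, against 27 in KO and 28 in WT at e13.5. Acsl3 ranked 33 and 34 in KO and WT adults, against 23 and 24 at e13.5. Hsd17b4 ranked 24 in both adult groups, against 13 in both embryonic ones. These levels use the union of a gene's exons as its length.

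Other genes of the pathway outside the 34 were counted in 8 lists chosen from general knowledge, although earlier results of these data were known. The lists held 98 genes, of which 96 were tested. In KO adults 51 were higher and 7 lower than at e13.5, where 20.5% and 20.9% of all genes were, and in WT adults 49 and 7, where 17.8% and 21.1% were. Between KO and WT 0 passed at either age. The lowest adjusted p was 0.9 in adults and 1 at e13.5, and 3 genes in adults and 4 at e13.5 had an unadjusted p below 0.05, where 2.27% and 2.39% of all genes had one. The median log2 fold change with age was 1.60 in KO and 1.56 in WT.

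Of 9 genes of fatty acid uptake and binding, 7 were higher and 1 lower in adults of each genotype. Lpl, lipoprotein lipase, had 2634 and 4388 CPM in KO adults and 5464 and 6840.3 CPM in WT adults, against 385 and 164 CPM in KO and 226 and 118 CPM in WT cells at e13.5. Lpl rose by 3.68 ± 0.66 (log2) in KO (adjusted p = 0.00244) and 5.16 ± 0.71 in WT (adjusted p = 0.000728). Cd36, the fatty acid translocase, had 1363 and 1878 CPM in KO adults and 1489 and 1491 CPM in WT adults, against 126 and 79.9 CPM in KO and 137 and 83.9 CPM in WT cells at e13.5. Cd36 rose by 3.97 ± 0.54 (log2) in KO (adjusted p = 0.000647) and 3.76 ± 0.53 in WT (adjusted p = 0.000859). Slc27a1, a fatty acid transport protein, had 175 and 214 CPM in KO adults and 148 and 217 CPM in WT adults, against 13.1 and 21.2 CPM in KO and 16.7 and 15.5 CPM in WT cells at e13.5. Slc27a1 rose by 3.50 ± 0.47 (log2) in KO (adjusted p = 0.000622) and 3.50 ± 0.47 in WT (adjusted p = 0.000669). Of 10 genes of triglyceride storage and breakdown, 7 were higher and 0 lower in both genotypes. Plin5, a lipid droplet coat protein of oxidative tissue, had 173 and 158 CPM in KO adults and 130.4 and 158 CPM in WT adults, against 0.313 and 0.0791 CPM in KO and 0.138 and 0.241 CPM in WT cells at e13.5. Plin5 rose by 9.80 ± 0.73 (log2) in KO (adjusted p = 0.000139) and 9.49 ± 0.71 in WT (adjusted p = 0.000169). Its counts at e13.5 were 5 and 2 in KO and 3 and 7 in WT, so the size of the change is uncertain. Plin4, another perilipin, had 198 and 462 CPM in KO adults and 426 and 532 CPM in WT adults, against 0.50 and 0.237 CPM in KO and 0.0922 and 0.93 CPM in WT cells at e13.5. Plin4 rose by 9.84 ± 1.08 (log2) in KO (adjusted p = 0.000278) and 9.80 ± 1.06 in WT (adjusted p = 0.000329), from counts of 8 and 6 in KO and 2 and 27 in WT at e13.5. Dgat2, which completes triglyceride synthesis, had 224 and 196 CPM in KO adults and 627 and 756 CPM in WT adults, against 10.3 and 5.30 CPM in KO and 13.2 and 9.50 CPM in WT cells at e13.5. Dgat2 rose by 4.76 ± 0.53 (log2) in KO (adjusted p = 0.000297) and 5.93 ± 0.56 in WT (adjusted p = 0.000252).

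Of 15 transcriptional and signalling regulators of the pathway, 10 were higher and 1 lower in KO adults, and 8 and 1 in WT adults. Klf15, a transcription factor of heart and muscle metabolism, had 36.6 and 49 CPM in KO adults and 76.9 and 102 CPM in WT adults, against 0.563 and 0.989 CPM in KO and 0.507 and 1.27 CPM in WT cells at e13.5. Klf15 rose by 5.75 ± 0.63 (log2) in KO (adjusted p = 0.000278) and 6.62 ± 0.64 in WT (adjusted p = 0.000252). Ppard, a nuclear receptor for fatty acids, had 35.9 and 26 CPM in KO adults and 32.7 and 30.4 CPM in WT adults, against 0.438 and 0.87 CPM in KO and 1.01 and 0.723 CPM in WT cells at e13.5. Ppard rose by 5.52 ± 0.58 (log2) in KO (adjusted p = 0.000252) and 5.18 ± 0.56 in WT (adjusted p = 0.000334). Rxrg, its partner type of receptor, had 74.1 and 59.7 CPM in KO adults and 57 and 60.8 CPM in WT adults, against 2.25 and 1.19 CPM in KO and 2.12 and 1.03 CPM in WT cells at e13.5. Rxrg rose by 5.29 ± 0.58 (log2) in KO (adjusted p = 0.000278) and 5.23 ± 0.58 in WT (adjusted p = 0.000353). The 6 genes of the pyruvate dehydrogenase switch, which gates glucose carbon, gave 5 higher and 1 lower in KO and 4 and 1 in WT. Pdk3, a pyruvate dehydrogenase kinase, was the lower one, at 1.91 and 1.46 CPM in KO adults and 1.16 and 1.72 CPM in WT adults, against 195 and 78.8 CPM in KO and 161 and 95 CPM in WT cells at e13.5. Pdk3 fell, with log2 fold changes of -6.34 ± 0.67 in KO (adjusted p = 0.000259) and -6.47 ± 0.67 in WT (adjusted p = 0.000278). Pdk4, another kinase of the complex, had 639 and 902 CPM in KO adults and 201 and 232 CPM in WT adults, against 7.0 and 30.5 CPM in KO and 18.3 and 32.1 CPM in WT cells at e13.5. Pdk4 rose by 5.35 ± 0.77 (log2) in KO (adjusted p = 0.000836) and 3.10 ± 0.69 in WT (adjusted p = 0.00716). Pdp1, a phosphatase of the complex, had 29.1 and 29.6 CPM in KO adults and 36.4 and 34.4 CPM in WT adults, against 7.13 and 3.84 CPM in KO and 6.08 and 6.44 CPM in WT cells at e13.5. Pdp1 rose by 2.43 ± 0.46 (log2) in KO (adjusted p = 0.00334) and 2.50 ± 0.46 in WT (adjusted p = 0.00307).

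Of 5 genes of ketone body use, 2 were higher and 0 lower in both genotypes. They were Bdh1, β-hydroxybutyrate dehydrogenase, with log2 fold changes of 2.44 ± 0.49 in KO (adjusted p = 0.00434) and 3.75 ± 0.52 in WT (adjusted p = 0.000783), and Oxct1, which activates acetoacetate, with 2.58 ± 0.52 in KO (adjusted p = 0.00404) and 2.87 ± 0.52 in WT (adjusted p = 0.0028). Of 19 further mitochondrial genes, 9 were higher and 3 lower in KO and 10 and 2 in WT, led in WT by Acad11 (4.91 ± 0.52 in KO (adjusted p = 0.000262) and 4.50 ± 0.51 in WT (adjusted p = 0.000371)), Acad12 (4.35 ± 0.48 in KO (adjusted p = 0.000278) and 3.50 ± 0.46 in WT (adjusted p = 0.000594)) and the acetyl-CoA synthetase Acss1 (5.87 ± 0.80 in KO (adjusted p = 0.000655) and 6.10 ± 0.81 in WT (adjusted p = 0.000625)). Of 25 further peroxisomal genes tested, 10 were higher in KO and 11 in WT and 0 lower. Abcd2, a peroxisomal transporter of fatty acyl-CoA, had 5.20 and 15.3 CPM in KO adults and 7.39 and 9.71 CPM in WT adults, against 1.25 and 1.15 CPM in KO and 1.47 and 0.689 CPM in WT cells at e13.5. Abcd2 rose by 3.09 ± 0.69 (log2) in KO (adjusted p = 0.00675) and 2.99 ± 0.68 in WT (adjusted p = 0.00822). Acot4, a peroxisomal thioesterase, had 2.31 and 2.65 CPM in KO adults and 2.21 and 1.86 CPM in WT adults, against 0.25 and 0.0396 CPM in KO and 0.138 and 0.138 CPM in WT cells at e13.5. Acot4 rose by 4.16 ± 0.95 (log2) in KO (adjusted p = 0.00745) and 3.82 ± 0.91 in WT (adjusted p = 0.00997). At e13.5 its levels lay near or below that of a count of 3 in a library, so the size of the change is uncertain. Of 7 genes of fatty acid synthesis, 1 was higher and 1 lower in KO, and 0 and 2 in WT. Elovl6, a fatty acid elongase, was lower in both genotypes, at 0.659 and 1.19 CPM in KO adults and 1.11 and 0.826 CPM in WT adults, against 24.9 and 23.1 CPM in KO and 21.5 and 21.3 CPM in WT cells at e13.5. Elovl6 fell, with log2 fold changes of -4.69 ± 0.54 in KO (adjusted p = 0.000321) and -4.46 ± 0.53 in WT (adjusted p = 0.000423). Scd2, a stearoyl-CoA desaturase, had 28.4 and 17 CPM in KO adults and 24.4 and 20.5 CPM in WT adults, against 49.3 and 48 CPM in KO and 40.5 and 331 CPM in WT cells at e13.5, with log2 fold changes of -1.10 ± 0.77 in KO (adjusted p = 0.266) and -3.05 ± 0.82 in WT (adjusted p = 0.0166). Of the 8 adipocyte markers, 1 (Cidea) had enough counts to test, at 36 and 20.9 CPM in KO adults and 23.6 and 21.7 CPM in WT adults, against 2.56 and 2.85 CPM in KO and 4.38 and 1.10 CPM in WT cells at e13.5. Each of the other 7 was at most 0.640 CPM in any library, and Adipoq and Ucp1 were at 0 in all 4 adult libraries.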

How the data were processed

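RNA-seq of 8 libraries (4 groups of 2) was analysed from 1 deposited table of expected counts per gene, which the authors made with RSEM on mm10, per the submitters' processing notes. The values are whole numbers with differing totals and were read as unscaled counts. The RSEM version, the aligner, the annotation and the use of strand are not named there. Symbols and exon lengths came from GENCODE vM21, which matched 51633 of 51826 identifiers. The fit used edgeR 4.0.16 under R 4.3.3 (filterByExpr, 16623 genes, TMM factors from 0.770 to 1.44), which fitted 4 group means to all 8 libraries by quasi-likelihood with 4 residual degrees of freedom. The median biological coefficient of variation was 0.428. Tests were two-sided, and p-values were adjusted by Benjamini-Hochberg over all genes tested. Standard errors of log2 fold changes were calculated as the absolute log2 fold change over the square root of F. They are therefore no measure apart from the p-values. DESeq2 1.42.0 served as an alternative, and near-identical copies were sought with BLAST 2.17.0 (identity of 95% or more over 50% or more of a transcript).

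The median change over all genes differed from 0, so fold changes are relative to TMM. With median-of-ratios scaling the median over all genes, adult over e13.5 in KO, was -0.26 in place of -0.15, and with upper quartile scaling it was -0.35. On simulated counts with known changes the fit recovered 79 of 110 genes changed 8-fold and 19 of 90 changed 4-fold between KO and WT adults (15570 genes), and 80 of 102 and 29 of 98 at e13.5 (15582 genes). A count of 3 in a library corresponds to 0.103 to 0.207 CPM, and counts cover counting error only.

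The 34 genes and the other lists were chosen with earlier results of these data known. Values per library are given for the synthetases, both Cpt1 genes, the thioesterases, the 2 genes of highest level per kb in each other step, the 3 of smallest p between KO and WT at each age, and the 3 largest rises and falls with age. From each other list up to 3 called genes of smallest p in WT were named. The values of 1 of them are not reported here. The replicate numbers do not pair the libraries by the labels. The correlation of deviations from group means between same-numbered libraries of KO and WT was 0.552 at e13.5 and 0.307 in adults. Between ages it was 0.129 in KO and -0.03 in WT. The main fit used no replicate term, so the split that KO and WT shared at e13.5 counted there as spread between libraries. Fits with a replicate block, over both ages or at e13.5 alone, also called 0 of 34 genes between KO and WT. Near-identical copies of Acadm, Etfa, Hadhb, Acsl1, Etfb and Acaa1a among the counted identifiers held at most 16 counts in a library. Gm44502, a copy of Cpt1b (100% identity over 64% of the transcript), was not among the counted identifiers. Nor was Gm9108, another copy of Hadhb (97.6% over 70%). Promoter entries were found for 28 of the 34 genes, all but Acaa2, Acot13, Cpt1b, Crat, Decr1 and Hsd17b4.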

Additional observations from a re-analysis of the deposited data

How the results depend on the processing

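Among the 18 other settings (17 for the interaction), 0 of 34 genes were called between KO and WT at either age or for the interaction. The count higher in adults ran from 20 to 27 in KO and from 17 to 24 in WT with scaling, filter, test, samples in the fit or block changed. The replicate numbers were tried as a block although they may not pair the libraries, and this gave 27 genes higher in KO and 22 in WT, with 1 lower in each. With the replicate block at e13.5 alone, chosen after seeing the data, 0 were lower in KO, where 1 was lower in the main analysis (Acsl3, adjusted p = 0.0968). Over fits without 1 library each, the genes higher in adults numbered 15 to 25 in KO and 11 to 21 in WT, and those lower 0 to 1 in both. The median log2 fold change then ran from 1.72 to 2.67 with age in KO, from 1.63 to 2.27 in WT, from 0.12 to 0.18 for KO over WT in adults, from -0.51 to 0.64 for KO over WT at e13.5 and from -0.50 to 0.70 for the interaction. In those fits a lone library of a group is assumed to vary like the others. With library sizes set to total counts, also chosen after seeing the data, both KO libraries lay above both WT libraries for 8 genes in adults (16 in the main analysis) and below for 4 (1 in the main analysis), and at e13.5 below for 1 (3 in the main analysis). The causes were not tested. Lengths of the longest transcript in place of all exons moved 71 of 136 levels per kb by more than the SD between replicates, and left Acaa2 first or next to first in every group. With 2 libraries a group, 4-fold changes were mostly missed on simulated counts, so a difference of that size between KO and WT may not be detectable here.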

Other observations

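Among the other genes of the pathway, 4 are given here for KO against WT adults, all short of the adjusted threshold. They were chosen after their values were seen and by no fixed rule. They are not the only ones of such size, as Bdh1 had 76.7 and 63.4 CPM in KO adults, against 155 and 130 CPM in WT adults. Dgat2, which completes triglyceride synthesis, had 224 and 196 CPM in KO adults, against 627 and 756 CPM in WT adults, a log2 fold change of -1.72 ± 0.47 (edgeR unadjusted p = 0.00445, adjusted p = 0.9). Pdk4, a kinase that shuts the pyruvate dehydrogenase complex, had 639 and 902 CPM in KO adults, against 201 and 232 CPM in WT adults, a log2 fold change of 1.83 ± 0.66 (edgeR unadjusted p = 0.0194, adjusted p = 1). Ppara, a fatty acid receptor whose targets include many of the 34 genes in liver, had 16.3 and 28.7 CPM in KO adults, against 53.8 and 48.8 CPM in WT adults, a log2 fold change of -1.19 ± 0.50 (edgeR unadjusted p = 0.0402, adjusted p = 1). Klf15 had 36.6 and 49 CPM in KO adults, against 76.9 and 102 CPM in WT adults, a log2 fold change of -1.06 ± 0.50 (edgeR unadjusted p = 0.0611, adjusted p = 1). The KO and WT libraries did not overlap for any of the 4, as for 25 of the 96 pathway genes tested (26.0%), where 27.9% of all genes did not.

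The liver transcript Alb was at 0 and 56.2 CPM in KO adults and 0 and 38.8 CPM in WT adults, so replicate 2 of both genotypes held it and replicate 1 did not. At e13.5 it was at most 0.25 CPM in any library. Of the 34 genes, Acsl3 in KO adults was the 1 that differed over 2-fold between adult replicates (a ratio of 2.03).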
